A study of Mus musculus with 6 samples.

Results

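The genes described here are those of the liver X receptors (LXRs) and genes that handle cellular cholesterol, some of them LXR targets. They were taken as a list of 10 symbols: the sterol exporters Abca1 and Abcg1, the LXR genes Nr1h3 and Nr1h2, the LXR target genes Apoe and Mylip, the lipid droplet coat gene Plin2, the cholesterol-esterifying enzyme gene Soat1, and the lysosomal cholesterol transporters Npc1 and Npc2. Each gene was read by its probe set with 1 symbol and the highest mean over all arrays. On that rule 8 of the 10 genes were measured, among 12393 genes in all. Nr1h2 and Soat1 had no named probe set and were not analysed here.

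RNA was measured on 6 Affymetrix 3′ arrays. Conventional dendritic cells (DCs), the antigen-presenting cells that prime T cells, had been sorted by flow cytometry for CD11c, the integrin encoded by Itgax, from BALB/c mice, an inbred laboratory strain. The arrays fall into 3 labelled spleen and 3 labelled lymph node, with no treatment, allele or age stated in the labels, which also do not say whether arrays came from separate animals or pools. The p-values reflect the spread among these arrays alone, and that spread may be technical.

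Cells export surplus cholesterol through ABC transporters in the plasma membrane. ABCA1 passes it to lipid-poor apolipoproteins and ABCG1 to formed high-density lipoprotein. LXRs are nuclear receptors that bind oxysterols, pair with retinoid X receptors and switch on these exporters together with APOE, a lipid carrier, and MYLIP, a ubiquitin ligase that removes the LDL receptor. Cholesterol that enters by endocytosis leaves the lysosome through NPC2, which carries it in the lumen, and NPC1, which takes it across the membrane. It is then exported or esterified by SOAT1 and stored in droplets coated by PLIN2.

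The promoters of the 3 genes past the threshold of the comparison below that the RefSeq promoter table (GRCm38.p6) lists are shown, to let the letters be read beside the values. Each runs from 250 bases before the transcription start to 50 bases after it, 5′ to 3′ along the gene, and capitals mark the matches described after them.
Abca1 promoter, chr4:53159846-53160145, minus strand: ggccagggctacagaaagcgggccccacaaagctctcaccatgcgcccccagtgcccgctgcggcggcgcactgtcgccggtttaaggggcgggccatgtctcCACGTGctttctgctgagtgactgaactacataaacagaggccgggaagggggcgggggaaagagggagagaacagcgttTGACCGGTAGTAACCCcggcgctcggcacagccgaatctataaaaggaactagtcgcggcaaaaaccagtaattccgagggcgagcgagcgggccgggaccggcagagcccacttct
Plin2 promoter, chr4:86670010-86670309, minus strand: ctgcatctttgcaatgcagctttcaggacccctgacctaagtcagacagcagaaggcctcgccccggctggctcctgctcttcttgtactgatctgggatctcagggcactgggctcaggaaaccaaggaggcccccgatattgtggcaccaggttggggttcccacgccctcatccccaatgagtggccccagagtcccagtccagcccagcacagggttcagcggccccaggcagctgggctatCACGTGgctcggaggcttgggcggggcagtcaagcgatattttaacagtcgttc
Npc2 promoter, chr12:84773063-84773362, minus strand: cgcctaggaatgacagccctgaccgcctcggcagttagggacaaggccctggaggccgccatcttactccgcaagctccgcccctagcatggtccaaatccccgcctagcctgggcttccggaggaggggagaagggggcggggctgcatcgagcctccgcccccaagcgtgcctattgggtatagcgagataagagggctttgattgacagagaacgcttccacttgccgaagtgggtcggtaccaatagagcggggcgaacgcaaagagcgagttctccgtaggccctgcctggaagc

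Of the 10 symbols, 8 had an entry in that table, with 11 promoters. The LXR motif searched was DR4, which is AGGTCA, then 4 bases of any kind, then AGGTCA again, on both strands. With at most 2 mismatches among its 12 fixed bases, 0 of the 11 promoters held it, against 3.02% of all 32851 promoters. With 3 mismatches, a limit chosen after the stricter search found nothing, 1 of the 11 held it, against 21.9% of all. That match, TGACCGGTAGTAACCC, lies 67 to 52 bases before the start of Abca1 and reads on the opposite strand. The E-box CACGTG, which reads the same on both strands, lies 147 to 142 bases before the start of Abca1 and across the start of Plin2, so that 2 of the 11 promoters held it, against 7.15% of all. The sterol regulatory motif TCACNCCAC was found in 0 of the 11, against 1.24% of all. Npc2 held none of the motifs. These are matches of letters, and no binding was measured.

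Before the comparison, the labels were set against known genes. Itgax, the sorting marker, had 856.1, 1151.7 and 939.2 intensity units in the arrays labelled spleen, against 1878.5, 1845.0 and 2006.3 in those labelled lymph node. It passed as lower in the arrays labelled spleen (log2 difference -0.97, limma adjusted p = 0.0310). Ccr7 and Ccl22, textbook genes of DCs that have migrated to lymph nodes, were higher in the arrays labelled spleen, which goes against the labels. Ccl22 had 662.3, 612.8 and 664.8 against 16.5, 23.6 and 22.5 intensity units. Ccr7 had 1757.5, 1656.9 and 827.2 against 556.0, 383.9 and 531.9, and passed narrowly (limma adjusted p = 0.0496). Marco, a gene of marginal zone macrophages, which lie in the spleen, was also higher in the arrays labelled spleen (limma adjusted p = 0.0310), which goes with the labels. Whether the labels are right was not tested. Every direction below is therefore that of the arrays as labelled. In bulk RNA, fewer cells of a type and less RNA per cell cannot be told apart. The 24 control probe sets for the bacterial dap, lys, phe and thr transcripts averaged 8.41 to 9.06 log2 units in the arrays labelled spleen and 7.39 to 7.96 in the arrays labelled lymph node (difference 1.11, exact permutation p = 0.1, two-sided, the smallest that 3 against 3 arrays can give).

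The comparison asks how expression of these genes differs between DCs labelled spleen and DCs labelled lymph node. Abca1, Plin2, Npc2 and Abcg1 were higher in the arrays labelled spleen, by 3.00-fold, 2.75-fold, 1.80-fold and 1.67-fold, and 0 were lower. With an adjusted p under 0.05 in limma, 4 of the 8 measured genes were called, beside 3.4% of all genes in either direction, 2.03% higher and 1.37% lower. At an unadjusted p under 0.05, 5 members were higher and 1, Apoe, was lower, beside 19% of all genes in either direction, 9.3% higher and 9.75% lower. The median log2 difference of the 8 was 0.61, beside -0.0053 for all genes. Groups did not overlap for 6 of the 8, against 24.5% of all genes. The list was chosen with earlier results of these data known, so its shares and median beside all genes are a description only. The calls rest on few arrays: with any 1 array left out, between 0 and 2 members passed, while the differences of the 4 genes stayed at 0.66 log2 units or more.

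**Figure D1:**
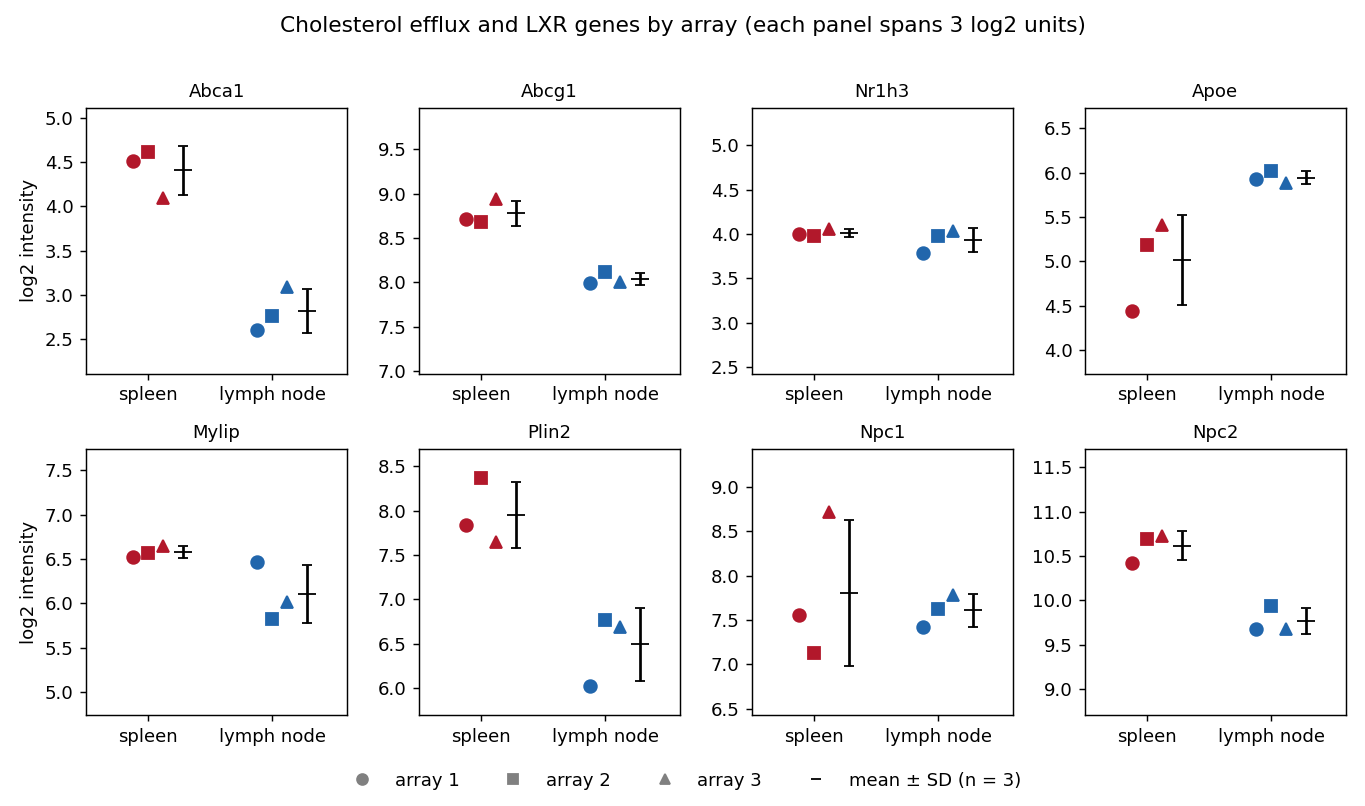
Log2 intensity of the 8 measured genes on each array, spleen-labelled arrays in red on the left and lymph node-labelled arrays in blue on the right of each panel, with the group mean and SD beside them (n = 3). The groups are apart for Abca1, Abcg1, Plin2, Npc2, Apoe and narrowly Mylip, while Npc1 on spleen array 3 lies above all its other arrays.

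Abca1, the exporter to lipid-poor apolipoproteins, had the smallest p of the members and ranked 74th of all genes. It was read at 22.8, 24.5 and 17.1 intensity units in arrays 1 to 3 labelled spleen, against 6.1, 6.8 and 8.5 in those labelled lymph node. Every spleen-labelled value was above every lymph node-labelled value, and spleen array 3 was the lowest of its group. On the log2 scale this was 4.41 ± 0.27 against 2.82 ± 0.24 (SD, n = 3 each), a difference of 1.59 ± 0.21 (SE, limma adjusted p = 0.0119). The lymph node-labelled values lie at the bottom of the scale: the 3 control probe sets for the bacterial trp transcript ranged from 3.1 to 6.8 intensity units over the 6 arrays. The size of the fold is therefore uncertain. Leaving out array 1 labelled lymph node (adjusted p = 0.0713) or array 2 (adjusted p = 0.0756) ended the call, with differences of 1.48 and 1.56.

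Abca1 has 3 probe sets, and all had the same sign. The second read 18.1, 11.7 and 21.0 intensity units in the arrays labelled spleen, against 5.1, 5.7 and 6.8 in those labelled lymph node. Its log2 difference of 1.50 ± 0.25 (SE) passed over all probe sets (limma adjusted p = 0.0287), where 2.78% passed. The third lay at 5.9, 5.9 and 6.9 against 5.8, 4.4 and 5.0 intensity units, with a log2 difference of 0.30 ± 0.17 (SE) that did not pass. Nearly all its values were within the range of the trp controls, so it has little room to show a difference. Within the spleen-labelled group the first 2 probe sets ordered the arrays differently, the first lowest on array 3 and the second lowest on array 2.

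**Figure D2:**
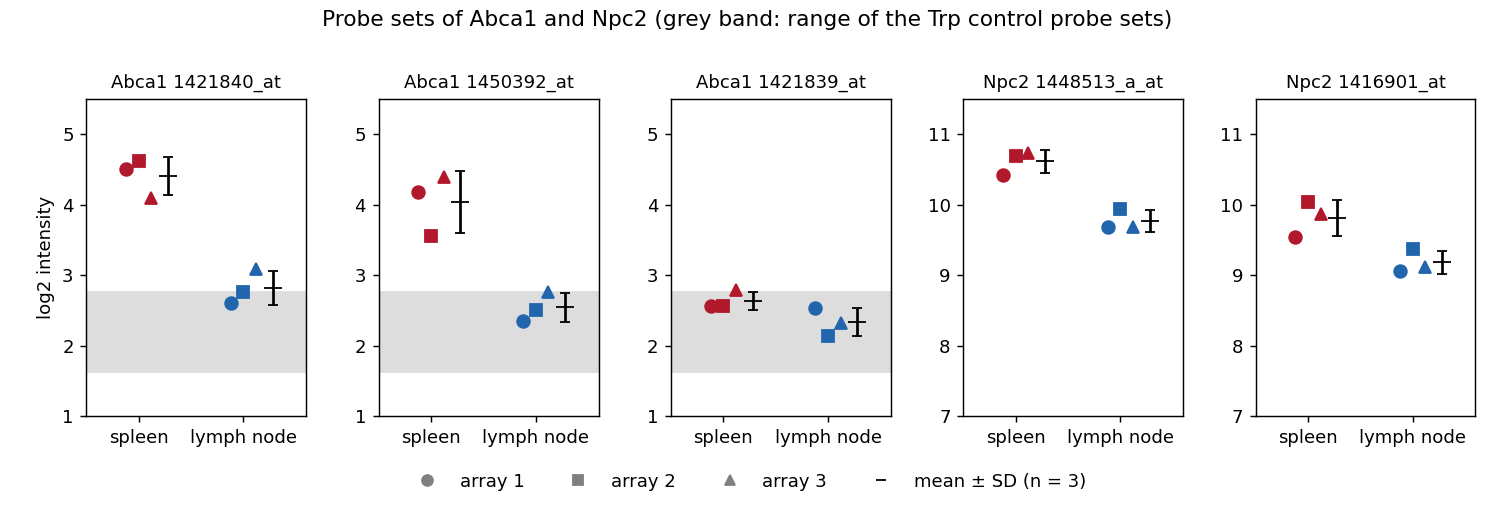
Log2 intensity of the 3 probe sets of Abca1 and the 2 of Npc2 on each array, spleen-labelled in red and lymph node-labelled in blue, with mean and SD (n = 3) and, for Abca1, a grey band for the range of the trp control probe sets (1.63 to 2.77). The first 2 probe sets of Abca1 stand above the band only in the spleen-labelled arrays except for 1 lymph node-labelled array, and both probe sets of Npc2 are separated well above it.

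Abcg1, the exporter to high-density lipoprotein, was read well above those controls. It had 421.6, 409.0 and 491.4 intensity units in the arrays labelled spleen, against 255.4, 278.5 and 256.7 in those labelled lymph node. The groups were far apart relative to their spread, at 8.78 ± 0.14 against 8.04 ± 0.07 log2 units (SD, n = 3 each). The difference of 0.74 ± 0.16 (SE) passed narrowly (limma adjusted p = 0.0477). The call was lost with the replicate number as a block in limma (adjusted p = 0.0768). It was lost whichever array was left out, at adjusted p from 0.0684 to 0.202, with differences between 0.66 and 0.79. It has 1 probe set, so no second reading is at hand.

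Plin2, the coat protein of lipid droplets, had 229.0, 329.5 and 200.5 intensity units in the arrays labelled spleen, against 64.7, 108.9 and 103.3 in those labelled lymph node. The lowest spleen-labelled value was well above the highest lymph node-labelled one. The log2 difference was 1.46 ± 0.27 (SE, limma adjusted p = 0.0343), from 7.95 ± 0.37 against 6.49 ± 0.41 (SD, n = 3 each). Leaving out spleen array 3 kept the call (adjusted p = 0.0387), and leaving out any other single array ended it, at adjusted p up to 0.130 and differences of 1.22 to 1.60.

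Npc2 and Npc1 act in sequence in the lysosome. Npc2, the luminal carrier, had 1376.3, 1653.8 and 1697.8 intensity units in the arrays labelled spleen, against 818.6, 982.5 and 821.0 in those labelled lymph node. All 3 spleen-labelled arrays were above the other group, with a log2 difference of 0.85 ± 0.17 (SE, limma adjusted p = 0.0402). Its second probe set also separated the groups, at 741.5, 1053.6 and 931.7 against 534.8, 659.6 and 555.4 intensity units, but its difference of 0.63 ± 0.19 (SE) did not pass over all probe sets (limma adjusted p = 0.131). The call on Npc2 was lost whichever array was left out, at adjusted p from 0.0640 to 0.183 and differences of 0.79 to 0.94. It was also lost with the replicate number as a block in limma (adjusted p = 0.0532).

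Npc1, the membrane transporter, had 187.6, 140.0 and 420.8 intensity units in the arrays labelled spleen, against 170.6, 197.7 and 219.1 in those labelled lymph node. Spleen array 3 held the highest value and spleen array 2 the lowest, so the lymph node-labelled arrays lay inside the spleen-labelled range. The log2 difference was 0.19 with a 95% interval from -0.68 to 1.07 (limma adjusted p = 0.846), and it was -0.27 without spleen array 3. The difference between the responses of Npc2 and Npc1 was not tested.

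Among the LXR genes themselves, Nr1h3, which encodes LXRα, lay at 16, 15.8 and 16.7 intensity units in the arrays labelled spleen, against 13.8, 15.8 and 16.4 in those labelled lymph node. The groups overlapped, and the log2 difference was 0.08 (95% interval -0.27 to 0.43, limma adjusted p = 0.842). The interval leaves out changes as large as those of Abca1 and Plin2, on a probe set read at low intensity.

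The other LXR target genes of the list did not share 1 direction. Mylip, the ligase that removes the LDL receptor, had 91.7, 95.2 and 100.3 intensity units in the arrays labelled spleen, against 88.5, 56.7 and 64.9 in those labelled lymph node. The groups were separated only by the small step above lymph node array 1, and the log2 difference of 0.48 ± 0.20 (SE) did not pass (limma adjusted p = 0.245). Apoe, the lipid carrier, had 21.7, 36.4 and 42.4 intensity units in the arrays labelled spleen, against 60.8, 65.0 and 58.8 in those labelled lymph node. It was the only member with all spleen-labelled arrays below the others, at a log2 difference of -0.93 ± 0.25 (SE) that did not pass (limma adjusted p = 0.0953). Spleen array 1 was the lowest, and without it the difference was -0.65 (adjusted p = 0.139).

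**Figure D3:**
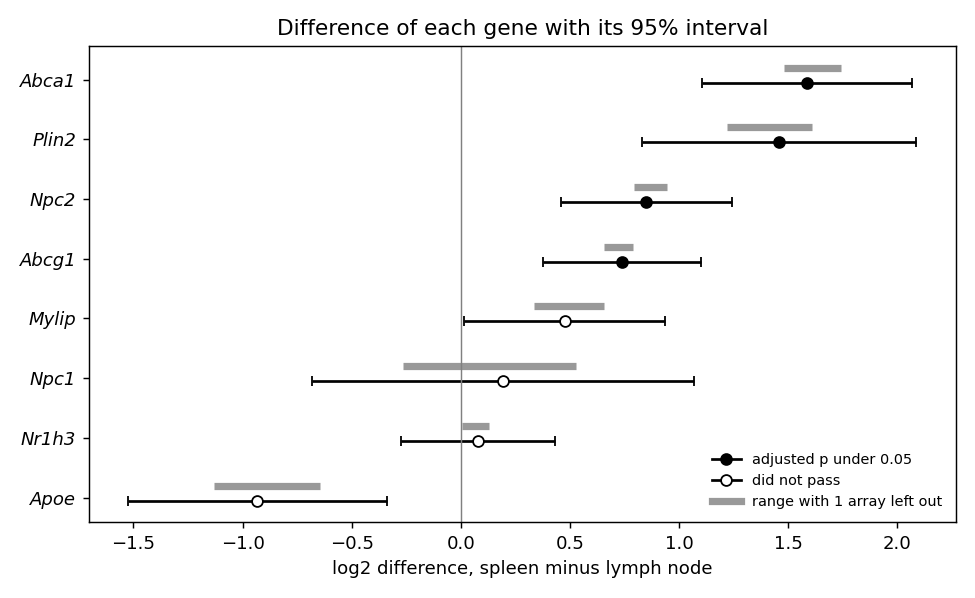
Log2 difference of each measured gene, spleen minus lymph node as labelled, with its 95% interval from limma, filled points having passed an adjusted p of 0.05, and a grey bar for the range with 1 array left out. Abca1, Plin2, Npc2 and Abcg1 lie at 0.74 or more, Apoe lies at -0.93, and the bar of Npc1 crosses 0.

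The members also varied within the spleen-labelled group. Array 3 held the highest spleen-labelled value for 6 of the 8 genes and the lowest for the other 2, Abca1 and Plin2. The share of all genes highest on that array was not counted, and some steps were small, as for Nr1h3 at 16.7 against 16 and 15.8. The summed intensity of 11 plasmacytoid DC markers was highest on spleen array 3, at 2098, 1722 and 5774 in the arrays labelled spleen, against 753.4, 778.9 and 1369 in those labelled lymph node. Of the 11, 3 passed as higher and 0 as lower in limma, with a median log2 difference of 1.39. For the calls of this and the other marker lists, the shares over all genes are 2.03% higher and 1.37% lower. Lymph node array 1 held the lowest value of its group for 6 of the 8 genes, again without a count over all genes. The summed intensity of 11 neutrophil markers was 119.9 to 200.5 in the arrays labelled spleen and 246.5 to 810.7 in those labelled lymph node, with 1 marker, Camp, lower and 0 higher. Camp had 9.1, 9.1 and 7.1 against 15.1, 31.8 and 21.2 intensity units, its spleen-labelled values just above the trp controls. S100a9, the brightest of the 11 on every lymph node-labelled array, had 72.3, 15.6 and 19.6 against 106.2, 453.9 and 587.6. It did not pass (limma adjusted p = 0.0536). Of 9 T cell markers 1 was higher, Cd28, and 0 lower. Cd28 had 312.9, 108.2 and 305.7 intensity units in the arrays labelled spleen, against 9.1, 5 and 47.8 in those labelled lymph node. Its 16.8-fold is uncertain in size, because the lymph node-labelled values reach down into the range of the trp controls. The summed intensity of the T cell markers was 603.6 to 1183 against 417.4 to 618.7, which overlap. Of 7 monocyte markers 0 passed in limma. At an unadjusted p under 0.05, 1 was higher and 0 lower, against 19% of all genes, with a median log2 difference of 0.11. Their summed intensity was 803.9 to 952.9 against 658 to 1700, which overlap. The 1 higher was the receptor gene Ccr2, by 4.28-fold (limma adjusted p = 0.0681). Of 9 B cell markers 0 were higher and 2 lower in limma, and of 10 stromal and endothelial markers 1 was higher and 1 lower. Of 9 NK cell and 5 erythroid markers 0 passed. The part of these markers in the members' values was not tested.

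Macrophages are the classic cell type of cholesterol efflux and of Apoe, so their markers are given beside the members. The summed intensity of 15 macrophage markers was 3215, 3573 and 2134 in the arrays labelled spleen, against 1793, 1715 and 3467 in those labelled lymph node. The sums overlapped through lymph node array 3 alone, and the median log2 difference was -0.40. All of the 15 but Adgre1, Siglec1, Marco and Lyz2 had their highest value on that array. Of the 15, 1 passed, beside 3.4% of all genes. This was Marco, a scavenger receptor of marginal zone macrophages, at 129.0, 122.8 and 64.4 against 14.8, 27.2 and 32.6 intensity units. At an unadjusted p under 0.05, 3 were on the higher and 1 on the lower side, beside 9.3% and 9.75% of all genes. Lyz2, a lysozyme gene, had 2075.3, 2618.9 and 1510.6 intensity units in the arrays labelled spleen, against 785.7, 905.2 and 1520.5 in those labelled lymph node, and did not pass (limma adjusted p = 0.127). Siglec1 had 28, 19.5 and 10 against 6.8, 7.8 and 10.5 and did not pass either (limma adjusted p = 0.158). Adgre1, which encodes F4/80, ran the other way, at 99.8, 145.7 and 43.9 against 238.3, 186.7 and 163.0 intensity units, and did not pass (limma adjusted p = 0.174). Fcgr1 and C1qc, other defining macrophage genes, lay near the trp controls on most arrays. Others lay above them. Csf1r had 624.4, 422.4 and 275.2 against 583.4, 443.5 and 1089 intensity units. C1qb had 92.3, 58.2 and 98.8 against 25, 9.1 and 155.6, highest on lymph node array 3. The groups overlapped for both, and neither passed (limma adjusted p = 0.435 and 0.496). The summed level of 10 conventional DC markers was 15488 to 21429 in the arrays labelled spleen, against 23344 to 25800 in those labelled lymph node. H2-Aa, H2-Ab1 and Cd74 were the brightest of the 10 on every array and make up most of that sum. Of the 10, 1 was higher, Ccr7, and 1 lower, Itgax, in limma, beside 2.03% and 1.37% of all genes. At an unadjusted p under 0.05, 1 was higher and 4 lower, beside 9.3% and 9.75%. The part of these markers in the members' values was not tested.

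The control probe sets for bacterial transcripts moved with the groups, as given above. With their level as a covariate, the log2 differences were 1.61 for Abca1, 1.55 for Plin2, 0.90 for Npc2 and 0.53 for Abcg1, and 0 of the 8 members passed in limma (adjusted p of 0.88 or more). In that fit 1 member, Abca1, and 701 of all genes had an unadjusted p under 0.05. The level separates the groups and the fit has 3 residual degrees of freedom, so the level and the labels cannot be told apart.

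Other genes of sterol and lipid handling were read from 9 lists holding 113 measured genes, of which 2 were higher and 4 lower in the arrays labelled spleen. Clu, which encodes the apolipoprotein clusterin, and Fabp5, a fatty acid carrier, were higher. Abcg3, Abca2, Rab8a and Tgm2 were lower. The background for these counts is again 2.03% and 1.37% of all genes. For the counts at an unadjusted p under 0.05 given with each list, it is 9.3% higher and 9.75% lower, 19% in all.

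Among 13 other ABC transporters and apolipoproteins, 1 was higher and 2 lower, with a median log2 difference of -0.29. Clu had 108.1, 75.6 and 72.6 intensity units in the arrays labelled spleen, against 27.4, 17.3 and 21.5 in those labelled lymph node (3.88-fold, limma adjusted p = 0.00910), with the same sign in all its 4 probe sets. Abcg3, a rodent relative of the ABCG transporters, had 624.9, 804.5 and 558.8 against 2050.3, 1807.6 and 2154.0 intensity units, a log2 difference of -1.61 (limma adjusted p = 0.00857). Abca2, an endolysosomal lipid transporter, had 15.5, 17.2 and 16.8 against 27.7, 30.6 and 31.7, a log2 difference of -0.86 (limma adjusted p = 0.0310). The groups did not overlap for any of the 3.

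Of 20 other LXR target genes 0 were higher and 2 lower in limma (1 and 3 at an unadjusted p under 0.05, where 19% of all genes lie), with a median of 0.013. Tgm2, the tissue transglutaminase, had 579.3, 376.8 and 166.0 intensity units in the arrays labelled spleen, against 2165.8, 2273.7 and 1039.3 in those labelled lymph node (log2 difference -2.38, limma adjusted p = 0.0430), with 1 sign in its 6 probe sets. Rab8a, a small GTPase of vesicle traffic, had 128.8, 193.6 and 135.8 against 424.0, 485.8 and 334.3 (log2 difference -1.45, limma adjusted p = 0.0205). Smpdl3a, a phosphodiesterase gene named after its values were seen, had 258.3, 190.3 and 139.9 against 83.2, 100.7 and 81.4 intensity units and just missed the threshold (log2 difference 1.11 ± 0.24 SE, limma adjusted p = 0.0530). The 2 called genes and Smpdl3a thus lay on opposite sides of 0.

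Among 10 PPAR regulators and fatty acid carriers 1 was higher and 0 lower in limma (2 and 0 at an unadjusted p under 0.05, against 19% of all genes; median 0.089). Fabp5 had 835.8, 559.0 and 412.4 intensity units in the arrays labelled spleen, against 110.8, 83.9 and 162.4 in those labelled lymph node, a 5.03-fold difference (limma adjusted p = 0.0135). It followed the same array order as Smpdl3a within the spleen-labelled group, highest on array 1 and lowest on array 3.

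The remaining 6 lists had 0 members past the threshold in limma, so their genes are given by value. Among 18 genes of lysosomal and intracellular sterol transport 3 were on the higher and 4 on the lower side at an unadjusted p under 0.05, against 19% of all genes (median -0.079). Lamp1, a lysosomal membrane protein, came closest, at 1462.1, 1315.0 and 1076.0 intensity units in the arrays labelled spleen against 578.1, 635.1 and 813.8 in those labelled lymph node (limma adjusted p = 0.0510). Lipa, the acid lipase that frees cholesterol from its esters in the lysosome, was named after its values were seen. It ran the other way, at 232.8, 412.7 and 208.3 against 550.0, 678.6 and 472.4 intensity units, and did not pass (limma adjusted p = 0.0929).

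Among 9 genes of lipoprotein and sterol uptake 1 was on the higher and 2 on the lower side at an unadjusted p under 0.05, against 19% of all genes (median 0.11). Lrp1, a large endocytic receptor, differed by -0.65 log2 units (limma adjusted p = 0.0611). The scavenger receptor gene Cd36, named after its values were seen, had 314.9, 421.3 and 266.2 intensity units in the arrays labelled spleen, against 58.6, 151.5 and 142.3 in those labelled lymph node (log2 difference 1.60 ± 0.37 SE, limma adjusted p = 0.0633). Its groups did not overlap, and it was the 1 gene of the list on the higher side at that p.

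Among 16 genes of lipid droplets and cholesteryl esters, the list closest to Plin2, 1 was on the higher and 2 on the lower side at an unadjusted p under 0.05, against 19% of all genes, and the median was -0.17. Dgat1, which makes triglycerides, differed by -0.61 log2 units (limma adjusted p = 0.119). The 12 LXR partners and coregulators had 2 higher and 2 lower at that p, a median of -0.039 and, closest to the threshold, the corepressor subunit gene Gps2 at -0.65 (limma adjusted p = 0.108). The 9 genes of oxysterol synthesis and breakdown had 0 higher and 1 lower, the sterol hydroxylase gene Cyp27a1 at -0.74 (limma adjusted p = 0.138; median -0.15). The 6 sterol sensing genes had 0 either way, with Rnf145 closest at -0.47 (limma adjusted p = 0.307; median -0.17).

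**Figure D4:**
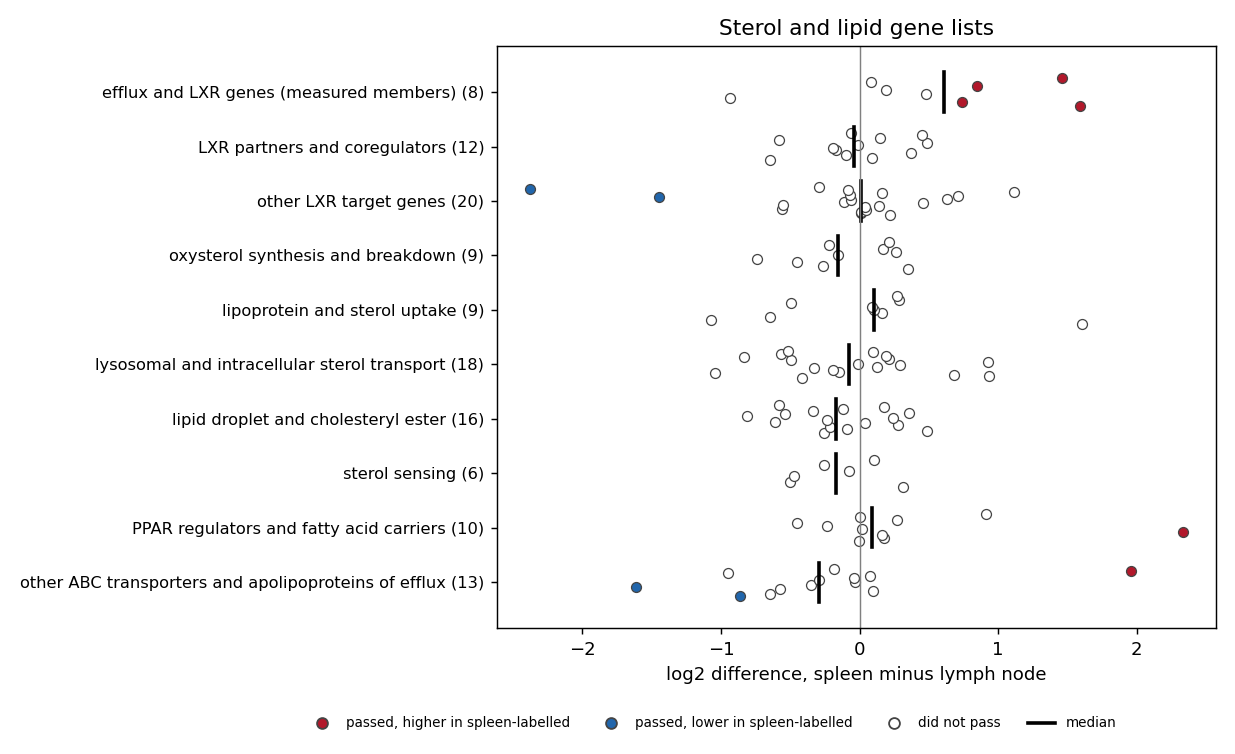
Log2 difference, spleen minus lymph node as labelled, of every measured gene of the efflux and LXR list and of 9 other sterol and lipid lists, with the number of measured genes after each name. Filled points passed an adjusted p of 0.05 and bars are medians, which lie at 0.61 for the efflux and LXR genes and between -0.29 and 0.11 for the others. All lists were chosen with earlier results of these data known.

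The genes most like Abca1 over the 6 arrays, among 6197 others at or above the median level, were Cttnbp2nl (Pearson r = 0.999), the adenylate cyclase gene Adcy6 (r = 0.996) and the mitochondrial acyl-CoA dehydrogenase gene Acadl (r = 0.996). All 3 share with it the step between the groups and, within the spleen-labelled arrays, the lowest value on array 3. Their log2 differences were 2.66, 2.20 and 0.93. With 6 arrays in 2 groups such values are a description only.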

How the data were processed

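Total RNA of sorted DCs was measured on 6 Affymetrix 3′ arrays, 3 per label. Per the labels' protocols, 20 ng of carrier RNA was added at extraction, preparations had an RNA integrity number above 8.4, and 2 ng was amplified. The deposited values are linear intensity summaries of probe sets; RMA and limma are the tools named, per the submitters' processing notes, and their versions, any floor and any further scaling are not given in the sources used here. Array medians were 39.3 to 41.0 intensity units, no detection calls were used, and precision is limited by there being 3 arrays per label.

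Of 22690 probe sets 64 were controls. Among the rest, 20380 had 1 gene symbol in the array annotation, 691 several and 1555 none. Each of 12393 genes was read by the brightest of its probe sets (mean log2 intensity over all arrays). Deposited intensity was transformed to log2 with no offset or level filter and fitted with limma 3.58.1 in R 4.3.3 (lmFit, eBayes, spleen against lymph node, two-sided, Benjamini-Hochberg over all genes, threshold 0.05). Folds are ratios of geometric means. The fit was tested on simulated data.

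The members and lists were chosen with earlier results of these data known. The naming rule takes all members, up to 4 called genes per list with the smallest adjusted p, or else the 1 with the smallest, and the 3 genes most correlated with the leading member. Alternatives were the mean of probe sets, median centring, a second quantile normalization, a level filter, array weights, eBayes with trend and robust, an offset of 16, a replicate block, leaving out suffixed probe sets, the control level as a covariate, and arrays left out. A looser DR4 limit was added after seeing the data.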

Additional observations from a re-analysis of the deposited data

How the results depend on the processing

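The number of efflux and LXR genes past the threshold towards the spleen label, 4, was 3 or 4 under 7 of 17 alternatives. It was 2 with the replicate block, 2 without probe sets with the suffixes _x_at, _s_at and _a_at, 1 without both arrays numbered 3, 0 with the control level as a covariate, and 0 to 2 with 1 array left out. Towards the lymph node label it was 0, except 1 with array weights, where Apoe passed (-0.97, adjusted p = 0.0420). Over all genes 421 passed, against 764 with array weights, 0 with the control level as a covariate (701 at an unadjusted p under 0.05), and 47 to 475 with 1 array left out. The other sterol and lipid genes had 2 higher, against 4 with the mean of probe sets, 5 with the filter at the median level, 6 with trend and robust, 6 with array weights, 4 with the replicate block, 4 with the offset of 16, 1 without suffixed probe sets, 0 with the control level, 4 without both arrays numbered 3, and 0 to 4 with 1 array left out. They had 4 lower, against 0 with the control level and 0 to 4 with 1 array left out. The control probe set difference of 1.11 was 0.95 to 1.32 with 1 array left out. The sign reversed for Nr1h3 with the control level (-0.17), and for Npc1 with it (-1.21), without both arrays numbered 3 (-0.18) and over single arrays left out (-0.27 to 0.53). The causes were not tested. Fits with fewer arrays also have fewer degrees of freedom. The level filter left out Abca1 and Nr1h3, and leaving out suffixed probe sets left out Nr1h3 and Apoe.

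Whether the replicate numbers pair the arrays cannot be told from the values. Deviations from the group means correlated at 0.022, 0.24 and 0.16 for the same number, against -0.28 to 0.13 for different numbers. Spleen arrays 2 and 3 correlated best with the lymph node array of their own number, and spleen array 1 with lymph node array 3 (0.085). With the replicate block Abcg1 (adjusted p = 0.0768) and Npc2 (0.0532) did not pass. Abca1 lies at the bottom of the scale in the lymph node-labelled arrays; with the offset of 16 its difference was 0.69 and passed.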
